A study of Mus musculus with 12 samples.

Results

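The effect of drinking H2-water for 14 days on hepatic gene expression was measured with 3 of the 12 microarrays of the study, described here across all genes. Each of these 3 arrays compared 1 pool of liver RNA from mice given H2-water (labelled with Cy5) with 1 pool from mice given control water (labelled with Cy3), and every pool mixed the RNA of 3 mice. The value of a gene is the log2 ratio of the H2-water signal over the control signal. The members were the probes whose H2-water and control signals were both well above background, on each of the 3 arrays. These were 20429 of 39429 probes, and they gave 12436 genes when each gene was represented by its brightest probe.

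All mice were male db/db mice on the BKS.Cg background, 8 weeks old, which carry the db allele of the leptin receptor on both chromosomes, in the control groups too. H2-water was water saturated with molecular hydrogen at 0.8 mM and drunk ad libitum, and the control was the same water after degassing. The other 9 arrays compared mice that received MgH2, which releases H2 in the stomach, by gavage once a day for 1, 3 or 7 days with mice that received Mg(OH)2, with 3 arrays per time point. The labels give the MgH2 dose as 0.9 mg/kg. A legend of the study gives the same dose for these time points, and its methods section gives other doses. Treated RNA was labelled with Cy5 on all 12 arrays and the dyes were never swapped, so that dye and treatment cannot be told apart in a ratio tested against 0.

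The db/db mouse lacks the signalling form of the leptin receptor, overeats, and develops obesity, hyperglycemia and a fatty liver. In the hepatocyte, long-chain fatty acids enter mitochondria through carnitine palmitoyltransferase 1 and are broken down by beta-oxidation, while very long chains and dicarboxylic acids are shortened in peroxisomes. The nuclear receptor PPARα, with its coactivator PGC-1α, switches on many of these enzymes. ChREBP (Mlxipl) and the SREBP proteins drive the synthesis of fatty acids and cholesterol, and Pck1 and G6pc release glucose. The question of the comparison was which of these hepatic genes differ after 2 weeks of H2 intake.

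The 3 arrays had 54.3% to 56.5% of their spots well above background in both channels, and 0 saturated spots. Of the 39429 probes, 26759 (67.9%) carried 1 gene symbol. The 3 arrays shared 1 slide, scan and version of the image software, and the MgH2 arrays were on other slides with another version, so these cannot be told apart from the difference between H2-water and MgH2. Their log2 ratios correlated across all tested probes, which are not independent, with r of 0.33 (arrays 1 and 2), 0.59 (1 and 3) and 0.42 (2 and 3). Of the 14 hepatocyte markers with a probe, 13 were tested and Fgb had a spot marked as an outlier, and their summed signal ran from 901000 to 1030000 in control and from 875000 to 1050000 in H2-water channels.

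The changes after 14 days of H2-water were small. Of the 20429 probes, 1006 (4.92%) were higher and 797 (3.9%) were lower with H2-water at an adjusted P under 0.05 (limma, all 12 arrays sharing 1 estimate of the spread, Benjamini-Hochberg adjustment over all tested probes). The median log2 ratio was 0.26, or 1.2-fold, among those called higher and −0.21, or 1.16-fold, among those called lower. Beyond 1.5-fold were 47 of those higher and 17 of those lower, and beyond 2-fold were 0 and 1. The median over all tested probes was −0.0049, and the median SD between the 3 arrays was 0.0829. By gene, 698 of 12436 (5.61%) were called higher and 444 (3.57%) lower. These are the shares to set beside the counts of every gene list below. With each channel scaled by its total in place of the deposited dye normalization, the split of probes was 790 higher and 1180 lower. The calls were sensitive to the number of arrays: leaving out array 1, 2 or 3 left 323, 383 and 334 probes higher and 147, 186 and 140 lower. A fit on the 3 arrays alone gave 373 and 129.

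Most probes called at 14 days had a ratio of the same sign with MgH2. Of the 994 probes called higher that also passed on all 12 arrays, 923 (92.9%) also had a mean MgH2 ratio above 0, and 621 were above 0 on each of the 12 arrays. Of all 18411 probes tested on the 12 arrays, 9202 had a mean MgH2 ratio above 0, and 1338 were above 0 on each array. Of 783 called lower, 689 (88.0%) had a mean MgH2 ratio below 0, and 385 were below 0 on each of the 12. Among all 18411 probes, 9209 had a mean MgH2 ratio below 0, and 1067 were below 0 on each array. The H2-water and MgH2 mice had separate control pools, but all arrays shared the labelling direction and the probes. The H2-water ratio was therefore also compared with the mean of the 3 MgH2 groups, a difference in which a constant of the probe drops out. It was above the MgH2 mean for 279 of 18411 probes (1.52%) and below it for 320 (1.74%). With the replicate number as a block, which paired the MgH2 groups with each other but not with all H2-water arrays, these counts were 833 and 811. By gene, 187 of 11555 (1.62%) were above and 214 (1.85%) below. Both higher at 14 days and above MgH2 were 55 genes, and both lower and below MgH2 were 63. Of the probes called higher at 14 days 45 were below MgH2, and of those called lower 0 were above it. Leaving out 1 of the 3 arrays left 10 to 11 probes above and 11 to 12 below (11, 10 and 10 above and 12, 11 and 12 below without array 1, 2 and 3).

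**Figure D1:**
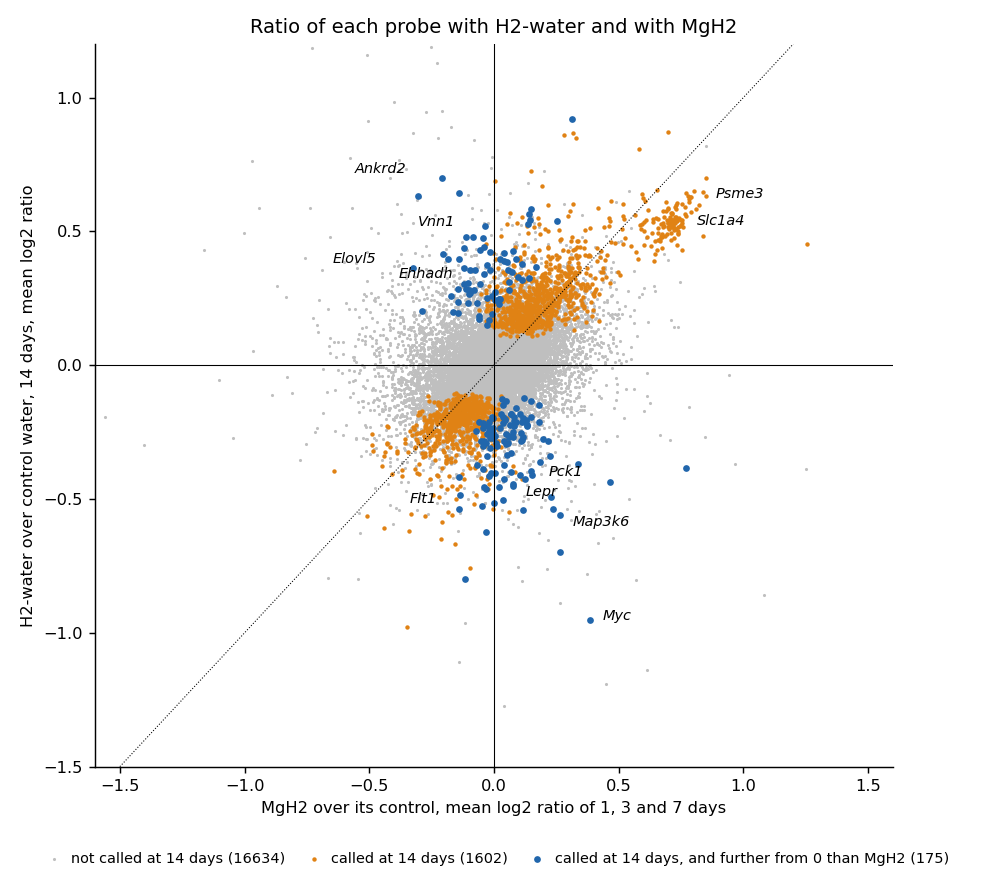
Mean log2 ratio of each of 18411 probes with H2-water at 14 days (vertical axis) against the mean of the MgH2 groups (horizontal axis), with 3 probes outside the axes. Grey points were not called at 14 days and orange points were called. The 175 blue points were called at 14 days and also in the difference from MgH2, in the same direction. The cluster at the upper right holds probes with ratios over 0.3 on all 12 arrays.

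A cluster of probes had a high ratio on every array, with H2-water and with MgH2. A ratio over 0.3 on all 12 arrays was found for 127 probes, and a ratio under −0.3 on all 12 for 0 probes. All 127 were called higher at 14 days. Their median log2 ratio was 0.53 with H2-water and 0.71 with MgH2, their median SD between the 3 arrays was 0.0259, and their median signal was 18400 against 336 over all tested probes. Of these probes 90 carried a symbol, and 25 of the genes had 30 other tested probes. The other probes of the same genes had a median log2 ratio of −0.02 (quartiles −0.05 and 0.10), and 2 of them were called higher. Luc7l2, an RNA splicing factor, shows the pattern: the cluster probe had log2 ratios of 0.64, 0.61 and 0.64, and the other probe −0.11 (adjusted P = 0.54, limma). Hemgn, a gene of red cell precursors, likewise had ratios of 0.53, 0.51 and 0.52 with H2-water and group means of 0.67, 0.75 and 0.72 after 1, 3 and 7 days of MgH2.

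**Figure D2:**
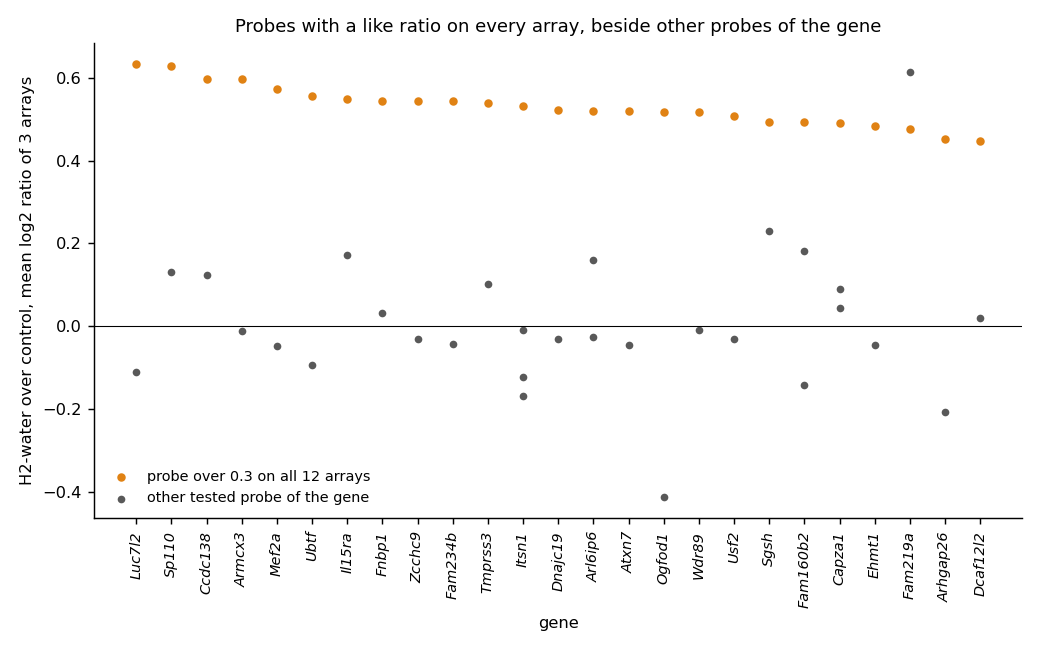
Mean log2 ratio, H2-water over control, of probes with a ratio over 0.3 on all 12 arrays (orange) and of every other tested probe of the same 25 genes (grey), 1 gene per position. The grey points lie around 0, and Fam219a is a gene whose other probe was as high.

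The same comparison of probes was made for all called genes. Among genes called higher but not above MgH2, 180 had another tested probe, and 116 of 216 such probes (53.7%) were above 0, with a median of 0.02 against 0.25 for the brightest probes. Among genes called higher and above MgH2, 10 of 12 other probes (83.3%) were above 0. Among genes called lower but not below MgH2, 97 of 136 other probes (71.3%) were below 0, and among those also below MgH2, 7 of 11 (63.6%). Of all 20429 tested probes, the brightest included, 48.6% were above 0.

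**Figure D3:**
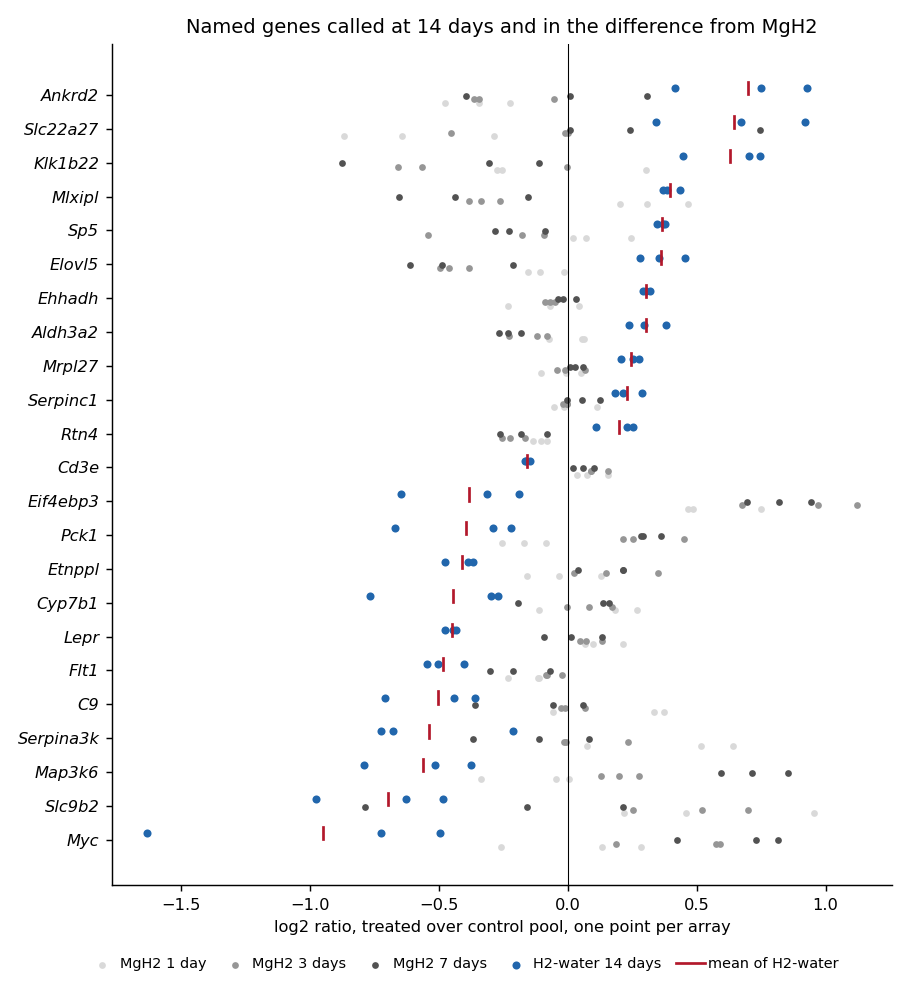
Log2 ratios of the named genes called at 14 days and in the difference from MgH2, 1 point per array. Blue points are the 3 H2-water arrays, red bars their mean, and grey points the 9 MgH2 arrays; for Lepr the blue points lie between −0.48 and −0.43 and the grey between −0.09 and 0.22.

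The promoters of Ehhadh, Elovl5 and Pck1 are printed because these genes stand for peroxisomal oxidation, lipid synthesis and glucose production and were each called in both comparisons. Each runs from 250 bases before to 50 bases after the start of the gene (RefSeq, GRCm38.p6), 5′ to 3′ on the strand of the gene. Capitals mark 1 motif in each: GTGGTGTGA, a match of the sterol element TCACNCCAC on the other strand, in Ehhadh (chr16:21787785-21788084, minus strand); the E-box CACGTG in Elovl5 (chr9:77917115-77917414, plus strand); and ACGTCA, the reverse of the cAMP response core TGACGT, in Pck1 (chr2:173152823-173153122, plus strand).
Ehhadh: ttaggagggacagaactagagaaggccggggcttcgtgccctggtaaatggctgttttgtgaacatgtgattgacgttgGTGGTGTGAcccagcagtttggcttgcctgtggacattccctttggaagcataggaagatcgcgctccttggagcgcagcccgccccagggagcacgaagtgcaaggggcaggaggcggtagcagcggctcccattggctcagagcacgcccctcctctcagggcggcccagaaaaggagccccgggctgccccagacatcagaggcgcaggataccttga
Elovl5: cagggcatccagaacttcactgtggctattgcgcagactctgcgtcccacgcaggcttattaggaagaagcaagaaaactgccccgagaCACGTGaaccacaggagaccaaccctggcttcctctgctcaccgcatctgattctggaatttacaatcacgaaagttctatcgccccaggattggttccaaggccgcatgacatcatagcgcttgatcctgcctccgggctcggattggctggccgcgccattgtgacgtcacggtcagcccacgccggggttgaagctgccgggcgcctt
Pck1: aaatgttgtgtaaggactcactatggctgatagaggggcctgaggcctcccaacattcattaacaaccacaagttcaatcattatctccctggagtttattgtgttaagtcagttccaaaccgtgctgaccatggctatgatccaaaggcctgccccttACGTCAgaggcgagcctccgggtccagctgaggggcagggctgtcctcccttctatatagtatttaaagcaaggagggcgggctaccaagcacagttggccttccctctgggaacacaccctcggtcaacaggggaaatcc
The matches began at positions −171, −161 and −91 from the gene start. On either strand, TCACNCCAC occurred in 1.24%, CACGTG in 7.15% and TGACGT in 7.51% of 32851 mouse promoters of this length. TGACGT was also found in the windows of Ehhadh (1 match, in lower case) and Elovl5 (2 overlapping matches on opposite strands, in lower case). The perfect direct repeat with 1 spacer base (DR1), the form of element bound by PPARα, was found in 0.0396% of promoters and in 0 of the 3. These are matches of letters and were not tested for binding.

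Among the called rises of peroxisomal fatty acid oxidation, that of Ehhadh was the most even. Ehhadh, the bifunctional enzyme of the peroxisomal pathway, had log2 ratios of 0.32, 0.30 and 0.29 on the 3 arrays, and the MgH2 group means were −0.09, −0.07 and −0.01. Ehhadh rose by 0.30 ± 0.05 (SE, n = 3 arrays; adjusted P = 0.0042, limma) and was above MgH2 by 0.36 (adjusted P = 0.015). Its 3 values were above all 9 MgH2 values, and its call at 14 days was kept whichever array was left out. Acaa1a, a peroxisomal thiolase, rose by 0.25 (adjusted P = 0.030, limma), and Abcd3, a peroxisomal membrane transporter, by 0.16 (adjusted P = 0.047). The calls of Acaa1a and Abcd3 were lost whichever array was left out. Acaa1b, the near-identical thiolase, had ratios of 0.30, 0.28 and 0.33 and did not pass at 14 days (adjusted P = 0.089, limma), while it was above MgH2 by 0.64 (adjusted P = 0.022), whose group means were −0.15, −0.39 and −0.47. Probes of these thiolases may share signal. Pecr, the peroxisomal trans-2-enoyl-CoA reductase, fell by 0.16 (adjusted P = 0.033, limma). Of 23 tested members of the peroxisomal list, 4 rose, 1 fell and 18 did not pass, with a median of 0.038 against 0.0032 over all genes. For comparison, 5.61% of all genes rose and 3.57% fell. The list median was −0.009 when all probes of each gene were averaged.

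Mitochondrial beta-oxidation gave 4 rises and 1 fall among 24 tested genes, with a median of 0.053. For comparison, 5.61% of all genes rose and 3.57% fell. Cpt1a, the liver form of carnitine palmitoyltransferase 1, had ratios of 0.27, 0.17 and 0.37. It rose by 0.27 (SE 0.04; adjusted P = 0.0068, limma), but a second probe was at −0.06 (adjusted P = 0.66), the MgH2 means were 0.09, 0.33 and 0.42, and leaving out array 1 or 3 ended the call. Cpt1b, the muscle form, rose by 0.44 (adjusted P = 0.017, limma) from ratios of 0.54, 0.21 and 0.58. Its signals, 21.7 to 41.2, were close to the background, where a ratio is less precise, and leaving out array 1 or 3 ended the call. Etfdh, which passes electrons from the acyl-CoA dehydrogenases to the respiratory chain, had ratios of 0.23, 0.22 and 0.27 and rose by 0.24 (adjusted P = 0.0026, limma), a call kept without any 1 array. Eci1, an enoyl-CoA isomerase, rose by 0.17 and Hadha, the alpha subunit of the trifunctional protein, fell by 0.17 (adjusted P = 0.038 and 0.039, limma). None of these 5 differed from MgH2 (adjusted P from 0.17 to 0.92, limma). The plot of lipid genes shows the members of the pathway on both sides of 0.

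**Figure D4:**
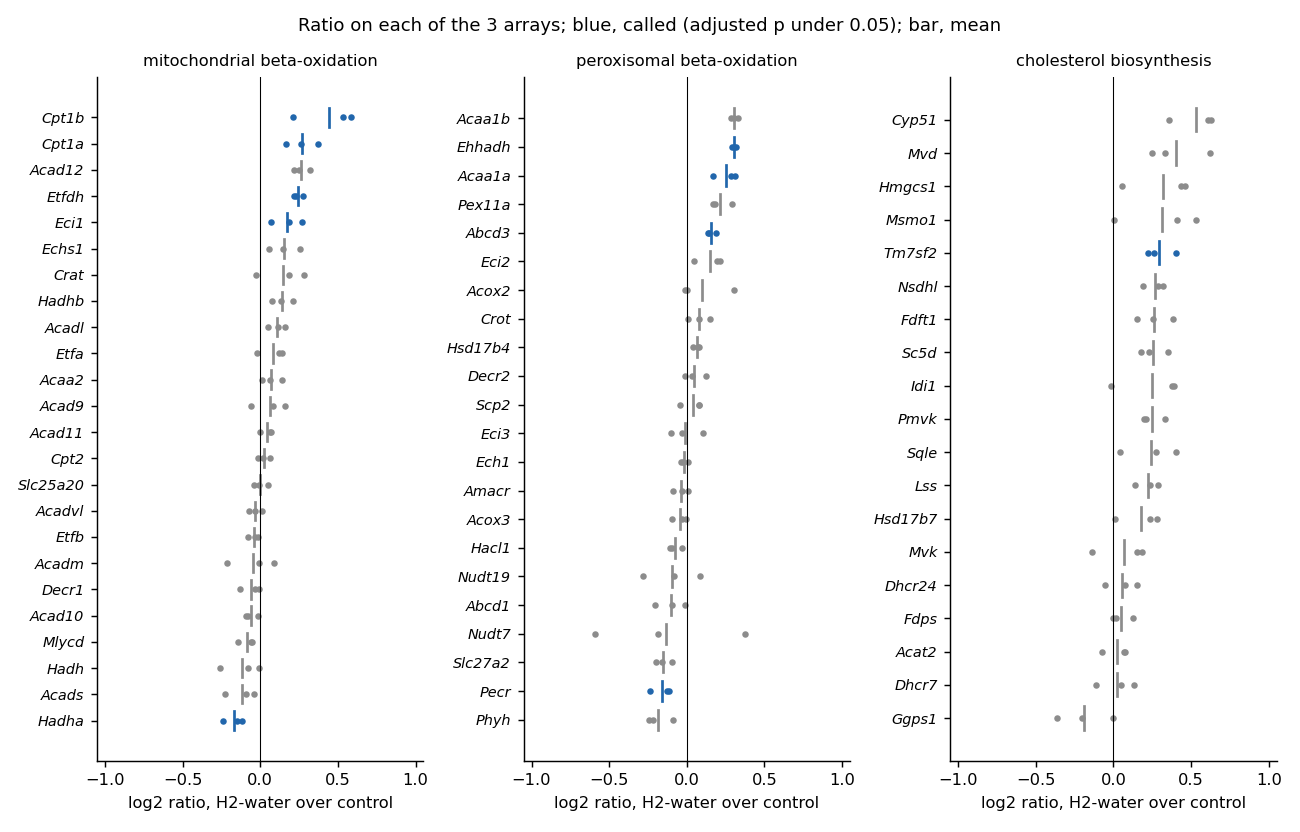
Log2 ratio, H2-water over control, on each of the 3 arrays for genes of mitochondrial beta-oxidation (24 drawn), peroxisomal beta-oxidation (22 drawn) and cholesterol biosynthesis (19 drawn). Blue genes were called, bars are means; the oxidation lists spread to both sides of 0, and 18 of the 19 cholesterol genes have a mean above 0.

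Fatty aldehyde and omega-oxidation enzymes were measured next. Aldh3a2, which oxidizes fatty aldehydes and 4-hydroxynonenal, had ratios of 0.38, 0.24 and 0.30, while the MgH2 means were 0.01, −0.14 and −0.23. It rose by 0.30 (SE 0.04; adjusted P = 0.0034, limma), was above MgH2 by 0.42 (adjusted P = 0.0078) and kept its call at 14 days without any 1 array. Cyp4a32, a fatty acid omega-hydroxylase, rose by 0.25 (adjusted P = 0.032, limma), and the brightest probes of its near-identical relatives Cyp4a31 (0.25, adjusted P = 0.10) and Cyp4a10 (0.18, adjusted P = 0.25) did not pass, although a fainter probe of each did (0.23 for both, adjusted P = 0.033 and 0.030). Signals of these hydroxylases may be shared between probes. Of the 26 tested genes for clearing 4-hydroxynonenal and other aldehydes 4 rose and 1 fell, with a median of 0.004. For comparison, 5.61% of all genes rose and 3.57% fell. The 4 were Aldh3a2, Aldh1a1 (0.29, adjusted P = 0.0016), Aldh1l1 (0.30, adjusted P = 0.043) and Aldh5a1 (0.22, adjusted P = 0.027), all aldehyde dehydrogenases, and the fall was Akr7a5, an aldehyde reductase (−0.12, adjusted P = 0.040). Among 38 genes of the antioxidant response 3 rose and 0 fell (limma; 2 were lower at an unadjusted P under 0.05, and 0 were lower by the methods' t-test), with a median of 0.008. They were Cat, or catalase (0.25, 0.28 and 0.31 on the arrays; MgH2 means of 0.22, 0.20 and 0.20), Aldh1a1, and Ugdh, which makes UDP-glucuronate (0.23, adjusted P = 0.034).

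The list of de novo lipogenesis had a median above 0 with H2-water and below 0 with MgH2. Elovl5, the elongase of polyunsaturated fatty acids, had ratios of 0.35, 0.46 and 0.28, against MgH2 means of −0.09, −0.45 and −0.44. It rose by 0.36 (SE 0.07; adjusted P = 0.011, limma) and was above MgH2 by 0.69 (adjusted P = 0.0063), a difference that held without any 1 array, whereas the rise itself was lost without array 1 or 2. Mlxipl, or ChREBP, had ratios of 0.38, 0.44 and 0.37, rose by 0.40 (adjusted P = 0.016, limma) and was above MgH2 by 0.54 (adjusted P = 0.021). Its MgH2 means were 0.325, −0.327 and −0.417 after 1, 3 and 7 days, and its highest MgH2 array, at 0.467, was above the H2-water arrays. Leaving out any 1 array ended the rise call of Mlxipl. These were the 2 called of 20 tested genes of de novo lipogenesis, of which 0 fell (limma; 0 were lower at an unadjusted P under 0.05 and by the methods' t-test). For comparison, 5.61% of all genes rose and 3.57% fell. The lipogenesis list median was 0.125 (0.14, 0.25 and 0.08 on the arrays), and it was −0.061, −0.556 and −0.556 after 1, 3 and 7 days of MgH2. Desaturases and elongases, a list that also holds Elovl5, had a median of −0.027 with H2-water, with 7 of 14 tested genes above 0. Fasn, fatty acid synthase, had ratios of 0.45, 0.66 and 0.18 and did not pass (adjusted P = 0.54, limma).

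Of the 20 tested genes of cholesterol biosynthesis, 19 had a mean above 0, but 1 was called higher and 0 lower (limma; 8 were higher and 0 lower at an unadjusted P under 0.05, and 7 and 0 by the methods' t-test). The list median was 0.248, from 0.299 on array 1, 0.050 on array 2 and 0.270 on array 3, and it was −0.305, −0.274 and −0.124 with MgH2. Tm7sf2, a sterol reductase, was the gene called (0.29, adjusted P = 0.025, limma), and a second probe was at 0.09 (adjusted P = 0.47). Cyp51, lanosterol demethylase, had ratios of 0.61, 0.36 and 0.63 and did not pass (adjusted P = 0.063, limma). Mvd, mevalonate diphosphate decarboxylase, was above MgH2 by 1.16 (adjusted P = 0.020, limma). Its H2-water mean was 0.40, which did not pass, and its MgH2 mean at 7 days was −0.93, further from 0.

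Genes of lipid droplets gave 0 calls among 28 tested (limma; 7 were higher and 0 lower at an unadjusted P under 0.05, and 4 and 0 by the methods' t-test), with a median of 0.127. Cidec, a lipid droplet fusion protein, had the highest mean, with ratios of 1.42, 1.03 and 0.94 (adjusted P = 0.21, limma), and its fainter probe had 0.74, 0.17 and −0.11. Lpl, lipoprotein lipase, was called higher (0.67, 0.61 and 0.17; adjusted P = 0.025, limma), while its other probe was at 0.05 (adjusted P = 0.77). Of 15 adipose tissue markers 10 were tested and the 5 not above background included Adipoq, Plin1 and Lep. The summed signal of the 10 ran from 55600 to 66600 in control and from 68100 to 81500 in H2-water channels, most of it from Car3, a carbonic anhydrase that liver also expresses. The adipokine Cfd had ratios of 2.57, 0.38 and 1.03 (adjusted P = 0.33). The part of adipose tissue in these values was not tested.

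The gluconeogenesis list had a median below 0 on each array, furthest on array 2. Its medians on arrays 1, 2 and 3 were −0.036, −0.293 and −0.086, with 7, 2 and 6 of 17 tested genes above 0. Pck1, the cytosolic phosphoenolpyruvate carboxykinase, had log2 ratios of −0.29, −0.67 and −0.22, and MgH2 means of −0.17, 0.30 and 0.31. It fell by 0.39 (SE 0.08; adjusted P = 0.016, limma) and was below MgH2 by 0.54 (adjusted P = 0.020), with the fall not called without array 1 or 2. G6pc, glucose-6-phosphatase, had ratios of 0.07, −0.95 and −0.78 and did not pass (adjusted P = 0.078, limma). Of the 17 tested genes 1 fell and 0 rose (limma; 1 was higher at an unadjusted P under 0.05, and 0 by the methods' t-test), 14 had a mean below 0, and the median was −0.133. Igfbp1, an insulin-repressed binding protein, had −0.07, −1.30 and −0.58 (adjusted P = 0.16). Array 2 was the lowest of the 3 for each of Pck1, G6pc and Igfbp1.

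Ppargc1a, Ppara, Foxo1 and Akt1, regulators named by the study, were not called at 14 days. Ppargc1a, which encodes PGC-1α, had ratios of 0.46, −0.58 and 0.09 with a mean of −0.01 (SE 0.17; adjusted P = 0.98, limma), and the MgH2 means were 0.07, 0.58 and 0.77. Its second probe was at −0.03 (adjusted P = 0.96). Ppara had 0.24, 0.28 and 0.33, above 0 on each array. Its spread in the shared fit, which also uses the MgH2 groups, was wide (0.28, SE 0.16, adjusted P = 0.31, limma). The other tested Ppara probes were at 0.26 and 0.15 (adjusted P = 0.31 and 0.58, limma), both above 0 on each array. Foxo1 had −0.04, −0.47 and 0.11 and Akt1 −0.15, 0.01 and −0.05, and neither passed (adjusted P = 0.57 and 0.48, limma). Fgf21, a liver hormone of fasting, was above background on 1 of 3 control and all 3 H2-water channels, with ratios of −0.38, 2.88 and 1.52, and was not tested. Gapdh, a reference gene, had 0.00, −0.03 and −0.01 by its brightest probe, and 2 of its 6 other probes were called lower (−0.17 and −0.19). Of the 20 tested genes that the study names, 8 rose, 2 fell and 10 did not pass. The study chose most of them on these arrays, so the count is not independent evidence of a direction.

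Lepr, which encodes the leptin receptor, fell evenly. The log2 ratios were −0.44, −0.48 and −0.43, with signals of 2800 to 3230 in control and 2080 to 2320 in H2-water channels. The fall of 0.45 (SE 0.05; adjusted P = 0.00032, limma) was 1.37-fold, and the difference from MgH2 was −0.53 (adjusted P = 0.0042). Both held when any 1 array was left out, and the 3 values were below all 9 MgH2 values. Of the 4 Lepr probes this was the only probe above background, and which receptor form it reads was not determined here. Flt1, a VEGF receptor of endothelial cells, had ratios of −0.40, −0.51 and −0.55. It fell by 0.48 (SE 0.05; adjusted P = 0.00031, limma), kept without any 1 array, and was below MgH2 by 0.35 (adjusted P = 0.018). Kdr, the main VEGF receptor, fell by 0.19 (adjusted P = 0.040, limma), with a second probe at −0.10 (adjusted P = 0.33). The other 17 of 19 tested endothelial genes did not pass and the list median was 0.037.

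Other falls called in both comparisons were of signalling and secreted proteins. Myc, the growth-promoting transcription factor, had ratios of −0.72, −0.50 and −1.63 at low signals of 42.4 to 132, against MgH2 means of 0.05, 0.45 and 0.66. Its fall of 0.95 (SE 0.19; adjusted P = 0.016, limma) was not called without array 1 or 3. Map3k6, a stress kinase, had ratios of −0.52, −0.79 and −0.38 at signals of 22.9 to 43.3, fell by 0.56 (adjusted P = 0.0046, limma), kept its call without any 1 array, and was below MgH2 by 0.83 (adjusted P = 0.0078). Both genes lay close to the background, where a ratio is less precise. Eif4ebp3, a repressor of translation, had −0.65, −0.19 and −0.31 while the MgH2 means were 0.57, 0.92 and 0.82. Its difference of −1.15 (adjusted P = 0.0042, limma) held without any 1 array, but its fall of 0.38 (adjusted P = 0.049) did not. Cyp7b1, the oxysterol hydroxylase of bile acid synthesis, fell by 0.44 (adjusted P = 0.033, limma) from ratios of −0.77, −0.30 and −0.27, and Etnppl, a phospholyase of ethanolamine phosphate that marks periportal hepatocytes, fell by 0.41 (adjusted P = 0.0074). Cd3e, a T cell receptor subunit, fell by 0.16 (adjusted P = 0.019) and Slc9b2, a sodium-proton exchanger, by 0.70 (adjusted P = 0.048). Slc9b2 also had low signals, 21.1 to 117, and its values overlapped those of the MgH2 arrays (−0.786 to 0.955). The falls of Cyp7b1, Cd3e and Slc9b2 were not called whichever array was left out, and that of Etnppl not without array 1 or 2.

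Acute phase, coagulation and complement genes were mostly below 0, whereas other secreted proteins lay near 0. The list of apolipoproteins and lipoprotein assembly had a median of 0.025, with 10 of 20 tested genes above 0. In it 2 genes were called higher and 0 lower (limma), and 5 were higher and 4 lower at an unadjusted P under 0.05. Hepatokines (25 tested) had a median of −0.023. For comparison, 5.61% of all genes rose and 3.57% fell. Of 27 tested acute phase genes 3 fell and 0 rose (limma; 0 were higher at an unadjusted P under 0.05 and by the methods' t-test), 24 had a mean below 0, and the median was −0.176. Serpina3k, a plasma serpin, had ratios of −0.73, −0.21 and −0.68, fell by 0.54 (SE 0.13; adjusted P = 0.032, limma) and was below MgH2 by 0.66 (adjusted P = 0.043). Its relative Serpina3m fell by 0.46 (adjusted P = 0.028), and these paralogs may share signal. Ceruloplasmin (Cp), the copper-carrying ferroxidase, fell by 0.27 (adjusted P = 0.024). The list median was also below 0 in all 3 MgH2 groups (−0.090, −0.254 and −0.164), and 1 of the 27 genes differed from MgH2. Over all genes, 1.62% were above MgH2 and 1.85% below it. Among 46 genes of coagulation and complement 4 fell and 1 rose, with a median of −0.079. C9, the pore-forming last component of complement, had ratios of −0.71, −0.44 and −0.36, fell by 0.50 (adjusted P = 0.015, limma) and was below MgH2 by 0.54 (adjusted P = 0.038), and Serpinc1, or antithrombin, rose by 0.23 (adjusted P = 0.0093).

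Genes that are set by the pattern of growth hormone secretion and differ between the sexes in mouse liver lay on opposite sides of 0 in these male mice. The 25 tested male-biased genes had medians of −0.452, −0.028 and −0.331 on arrays 1, 2 and 3, and the 22 female-biased genes 0.353, 0.038 and 0.250. Slco1a1, a male-biased organic anion transporter, had ratios of −2.30, −1.32 and −2.00 (adjusted P = 0.22, limma), and Elovl3, a fatty acid elongase, had −1.22, −0.18 and −1.27 (adjusted P = 0.083). Sult2a1, a female-biased sulfotransferase, had 1.39, 0.78 and 1.39 (adjusted P = 0.62), Cyp2b13, a cytochrome P450, 1.51, 0.37 and 0.79 (adjusted P = 0.072). The standard errors of the shared fit, which also uses the spread of the MgH2 groups, were 0.87 for Slco1a1 and 1.22 for Sult2a1, while the SD between the 3 H2-water arrays was 0.50 and 0.36. Of the male-biased genes 1 fell (Cyp7b1) and 0 rose, and of the female-biased 1 rose (Rtn4, an endoplasmic reticulum protein; 0.20, adjusted P = 0.021) and 0 fell. These calls were close to the shares over all genes, of which 5.61% rose and 3.57% fell. At an unadjusted P under 0.05 the counts were 6 lower and 0 higher, and 5 higher and 0 lower. By the methods' t-test they were 0 and 0, and 3 and 0. With MgH2 the medians after 1, 3 and 7 days were 0.277, 0.084 and −0.139 (male-biased) and −0.170, 0.026 and 0.194 (female-biased).

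**Figure D5:**
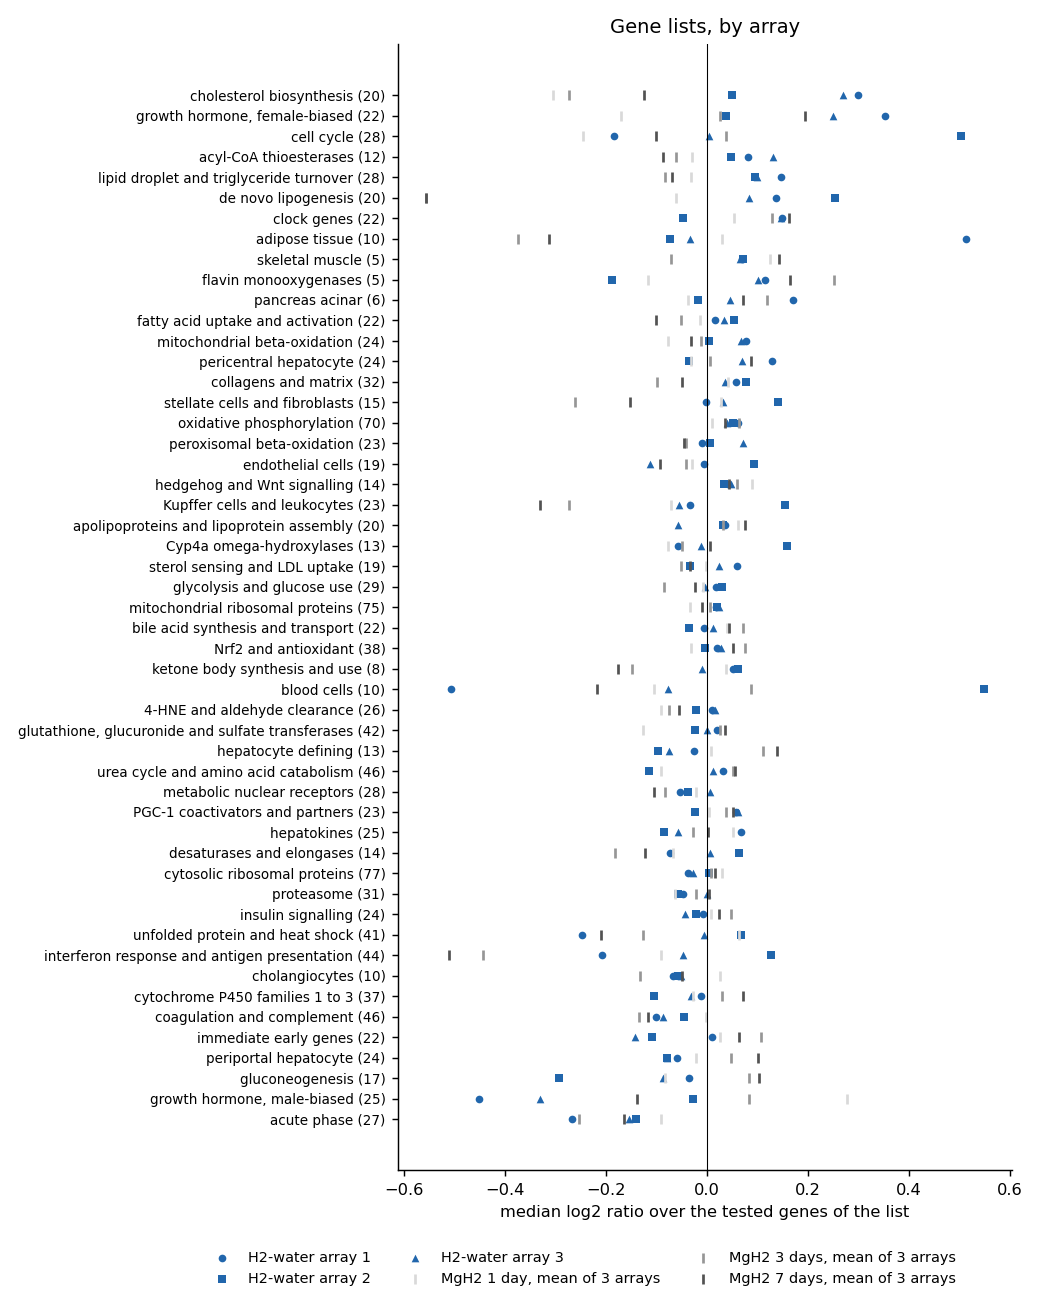
Median log2 ratio of each gene list (number of tested genes in parentheses) on the 3 H2-water arrays (blue symbols) and in the MgH2 groups (grey bars, mean of 3 arrays). Array 2 (squares) stands apart from arrays 1 and 3 for cell cycle, blood cells and the growth hormone lists, and the acute phase median is below 0 on all 3 arrays.

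Array 2 stood apart from arrays 1 and 3 in several gene groups. The cell cycle list (28 tested, 0 called by limma, with 1 higher and 1 lower at an unadjusted P under 0.05 and 0 and 1 by the methods' t-test) had medians of −0.184, 0.504 and 0.005. Mki67, the proliferation marker, had −0.37, 1.21 and −0.05. The blood cell list (10 tested) had medians of −0.507, 0.548 and −0.077, led by hemoglobin genes such as Hbb-bs at −0.51, 0.98 and 0.08. Hamp, the iron hormone hepcidin, had −1.61, 3.90 and −2.33, and Mt2, a metallothionein, 0.38, −1.81 and 0.30. Without array 2 the median of the cell cycle list was −0.091, and that of the blood cell list −0.277. Fewer cells of a type and less RNA per cell cannot be told apart in such bulk RNA.

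Clock genes gave 0 calls among 22 tested (limma; 2 were higher and 1 lower at an unadjusted P under 0.05, and 2 and 0 by the methods' t-test). Dbp, a clock output factor, had ratios of 1.14, 0.38 and 1.32 (adjusted P = 0.071, limma), with 1.18, 0.49 and 1.28 at a second probe. Per2, a clock repressor, had 0.76, 0.43 and 0.46 and Arntl, the activator BMAL1, −0.67, −0.33 and −0.63 (adjusted P = 0.27 and 0.57). Noct, the rhythmically expressed nocturnin, had 1.67, −1.47 and 0.18. Ciart, a repressor of the clock, was above background on the 3 H2-water channels and on 0 control channels, with mean signals of 49.1 and 12.0. Its ratios were 2.03, 1.55 and 2.51, at least 2.97-fold higher with H2-water (the bound sets the control at the lowest signal of probes above background, or its own signal where higher), and no test is given, since it was singled out by being above background only with H2-water. The MgH2 ratios of Ciart were 0.11, 0.28 and 0.50. Ciart was 1 of 434 probes above background only with H2-water. The Cy5 channel, which held the H2-water RNA, had more spots above background on each of the 3 arrays than Cy3, and its part in this count was not tested.

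Most genes of mitochondrial proteins were not called. Of 70 tested genes of oxidative phosphorylation 19 rose and 3 fell, where 5.61% of all genes rose and 3.57% fell, with a median of 0.044 (0.021 with channels scaled by their totals). Ndufa9, a complex I subunit, had ratios of 0.31, 0.16 and 0.20 and rose by 0.22 (adjusted P = 0.0042, limma). Its MgH2 means were 0.09, 0.21 and 0.18, and 1 of the 70 genes differed from MgH2. Over all genes, 1.62% were above MgH2 and 1.85% below it. Of 75 mitochondrial ribosomal protein genes 11 rose and 3 fell, with a median of 0.011 that became −0.012 with channels scaled by their totals. Mrpl27 had ratios of 0.27, 0.21 and 0.25, rose by 0.24 (adjusted P = 0.0046, limma), was above MgH2 by 0.24 (adjusted P = 0.024), and a second probe also rose (0.32, adjusted P = 0.0013). Of 77 cytosolic ribosomal protein genes 3 rose and 5 fell, with a median of −0.027. Rpl23, of the large subunit, was at 0.28, 0.31 and 0.26 with MgH2 means of 0.25, 0.26 and 0.25, while its other 2 probes were at −0.05 and 0.05. Multiple pseudogenes make ribosomal protein probes uncertain.

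The largest called rises and falls were mostly of genes with low signals or with a like ratio under MgH2. Dpf1, a chromatin protein of neurons, had the largest rise (0.76, 0.88 and 0.99; adjusted P = 0.027, limma), and its MgH2 means were 0.42, 0.39 and 1.52. Vmn1r48, a vomeronasal receptor, Fscn3, Med13, Rdh1, Psme3, Luc7l2 and Atp8a1 rose by 0.63 to 0.81, with MgH2 group means between 0.47 and 0.89. Ankrd2, a muscle ankyrin repeat protein, rose by 0.70 (adjusted P = 0.011), Slc22a27, an organic anion transporter, by 0.64 (adjusted P = 0.038) and Klk1b22, a kallikrein, by 0.63 (adjusted P = 0.048), each with a mean MgH2 ratio below 0 and each above MgH2. Zfp217, a zinc finger protein, rose by 0.65, while its other probe was at 0.08. Sncb, beta-synuclein, fell most, 2.14-fold (log2 ratios of −0.93, −1.14 and −1.22; adjusted P = 0.0014, limma), kept without any 1 array. Ihh, the Indian hedgehog ligand, fell by 0.98 (−0.73, −1.40 and −0.81; adjusted P = 0.011) and Asns, asparagine synthetase of the amino acid response, by 0.76 (−0.70, −0.66 and −0.92; adjusted P = 0.038). Egfem1, Rgs4, Gabbr2, Neb, Clmp and Vps72 fell by 0.56 to 0.79. Of the 117 named genes called at 14 days, 27 kept the call with each of the 3 arrays left out in turn, and 57 lost it whichever array was left out.

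Few zonation markers were called, where 5.61% of all genes rose and 3.57% fell. Of 24 tested genes of pericentral hepatocytes 3 rose and 0 fell (limma; 1 was lower at an unadjusted P under 0.05, and 0 by the methods' t-test), with a median of 0.052. They were Aldh3a2, Slc1a4, an amino acid transporter whose MgH2 means were higher still (0.57 with H2-water; 0.70, 0.73 and 0.71 with MgH2), and Sp5, a Wnt-responsive transcription factor. Sp5 had ratios of 0.38, 0.34 and 0.37, rose by 0.36 (adjusted P = 0.021, limma) and was above MgH2 by 0.48 (adjusted P = 0.026). Of 24 periportal genes 2 fell, Pck1 and Etnppl, and 0 rose (limma; 0 were higher at an unadjusted P under 0.05 and by the methods' t-test), with a median of −0.090. Among 37 cytochromes P450 of families 1 to 3, which handle drugs and steroids, 2 fell (Cyp3a59 and Cyp2c38, each with a second probe near 0) and 0 rose (limma; 1 was higher at an unadjusted P under 0.05, and 0 by the methods' t-test).

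Markers of Kupffer cells, leukocytes and stellate cells had few calls, and both list medians were highest on array 2. Of 23 tested Kupffer cell and leukocyte genes 1 fell and 0 rose, with a median of 0.028 (limma; 1 was higher at an unadjusted P under 0.05, and 0 by the methods' t-test). The list medians on arrays 1, 2 and 3 were −0.033, 0.154 and −0.055, with 8, 20 and 8 of the 23 genes above 0. The stellate cell list (15 tested) had 1 rise, Pdgfra, a growth factor receptor (0.29, adjusted P = 0.0039, limma; MgH2 means of 0.18, 0.41 and 0.47), and a median of 0.046 (−0.002, 0.140 and 0.032 on the arrays). Summed signals ran from 25500 to 27500 in control and from 24200 to 30000 in H2-water channels for the Kupffer cell and leukocyte genes, and from 23900 to 27800 and from 23700 to 28300 for the stellate cell genes. Of the acinar pancreas markers 6 were tested and 19 were not above background, among them Cela2a, Cpa1 and Pnlip.

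Genes outside the rule for naming, chosen after their values were seen, included Vnn1, a pantetheinase known as a PPARα target. Its ratios were 0.55, 0.39 and 0.50 against MgH2 means of 0.20, −0.11 and −0.34. Vnn1 rose by 0.48 (SE 0.05; adjusted P = 0.00057, limma) and was above MgH2 by 0.56 (adjusted P = 0.0045), and its call at 14 days was kept without any 1 array. Bcl2, an inhibitor of apoptosis, had 0.41, 0.48 and 0.53 and Car2, a carbonic anhydrase, 0.45, 0.45 and 0.42, and both were called in both comparisons. Cyp39a1, an oxysterol hydroxylase like Cyp7b1, fell by 0.43 (adjusted P = 0.025, limma) and was below MgH2 by 0.90 (adjusted P = 0.010).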

How the data were processed

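Liver RNA pools of 3 mice were hybridised in pairs to 2-colour Agilent mouse arrays (44397 features as the files show). Per the file headers, the intensity values were background-corrected and dye-normalized within each array by Feature Extraction before the authors deposited them. The labels name version 10.10.1, and the headers of the 14-day arrays give 10.7.3.1. The deposited log10 ratio is Cy5 over Cy3, and the deposited value table holds the same ratios as log2 values (largest difference 1.39e-06). No fold or p column of the files was used.

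Here log2 ratios of processed signals were computed without further scaling. Control spots and 176 to 244 spots per array marked as outliers were left out. A probe with no unmarked spot on a 14-day array was not tested, and the unmarked spots of a probe were averaged. Probes were named by matching the accession that the scanner output gives for each probe to RefSeq transcripts. All 12 arrays were fitted with limma 3.58.1 (R 4.3.3) with a mean per group (8 residual degrees of freedom). The 14-day mean was tested against 0, two-sided, and against the mean of the MgH2 groups. A call is an adjusted P under 0.05. The SE includes the MgH2 spread, so that P measures variation between pools. "Above background" means that at least 0.5 of a probe's spots were flagged well above background in both channels.

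The text names the 12 largest called rises and falls, up to 6 called members per gene list, the study's genes, and the 5 extreme differences from MgH2 in each direction. Genes outside these rules were chosen after their values were seen. They included Fasn, Cyp51, Cidec, Cfd, Igfbp1, Hamp, Mt2, Mki67 and Hbb-bs. Slco1a1, Elovl3, Sult2a1, Cyp2b13, Dbp, Per2, Arntl and Noct were also among them. Some genes are not reported here by name or in the plots, and counts over lists include them. The members and lists were chosen with earlier results of these data known. Intervals of counting do not apply to arrays, whose number limits the precision. Alternatives covered scaling, background correction (normexp, offset 50, on raw signals, then loess), filters, array weights, the value table and leaving out arrays. Python 3.11.15, pandas 2.3.3 and matplotlib 3.10.9 were used. The scripts were tested on simulated data.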

Additional observations from a re-analysis of the deposited data

Results flagged for a closer look

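The H2-water ratio differed from the mean MgH2 ratio, by a test of the difference itself (limma), for 279 probes above it and 320 below it. Since slide, scan and software version differ between these arrays, their part in the difference was not tested and cannot be told apart from it.

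Among the named genes, those above MgH2 are given with the difference of the log2 ratios, H2-water minus MgH2. In lipid metabolism the differences were 1.16 for Mvd, 0.69 for Elovl5, 0.64 for Acaa1b, 0.54 for Mlxipl, 0.42 for Aldh3a2 and 0.36 for Ehhadh. In other genes they were 1.14 for Rad51b, a recombination protein, 1.04 for Gngt1, a G protein subunit, 0.94 for Klk1b22, 0.91 for Ankrd2, 0.78 for Slc22a27, 0.48 for Sp5, 0.36 for Rtn4, 0.24 for Mrpl27 and 0.21 for Serpinc1.

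Below MgH2, the differences of the log2 ratios were −1.37 for Fam222a, −1.34 for Myc, −1.15 for Eif4ebp3, −1.12 for Myom3, a sarcomere protein, −0.99 for Tceal5, −0.96 for Slc9b2 and −0.83 for Map3k6. They were −0.66 for Serpina3k, −0.54 for C9, −0.54 for Pck1, −0.53 for Lepr, −0.52 for Cyp7b1, −0.51 for Etnppl, −0.35 for Flt1 and −0.25 for Cd3e. Psme3, Luc7l2 and Hemgn were high on all 12 arrays and less so with H2-water, by −0.19, −0.22 and −0.20. The differences of Map3k6, Elovl5, Lepr and Eif4ebp3 were called whichever H2-water array was left out, and each of the other named genes lost the call in at least 1 such fit.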

How the results depend on the processing

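Array weights gave 2727 probes higher and 2799 lower, and 1570 above and 1655 below MgH2. Normexp and loess gave 1713 higher and 466 above MgH2, and the fit on only the 3 arrays gave 373 higher and 129 lower. Without a filter on dim probes 1313 were lower and 171 above MgH2. The methods' t-test gave 922 higher and 468 lower unadjusted, and 0 and 0 after Benjamini-Hochberg adjustment. With the replicate number as a block, 1351 were lower, 833 above and 811 below MgH2. By the r of their deviations, the numbers did not pair the H2-water arrays with all MgH2 arrays (−0.041 to 0.287 over 9 pairs, and 0.149 to 0.27 with the 1-day arrays), but paired the MgH2 groups with each other (0.368 to 0.655 over 9 pairs). Leaving out 1 array gave 323 to 383 higher, 140 to 186 lower, 10 to 11 above MgH2 and 11 to 12 below. Under normexp and loess the difference of Rdh1 from MgH2 turned to 0.421 (−0.152 in the main analysis), and the ratio of Gapdh to 0.144 (−0.01). The causes were not tested. No other value of a named gene that was called in either fit changed sign, whereas Ppargc1a and Foxo1, which were not called, turned to 0.275 and 0.034 without array 2. Of the 117 named calls, 45 were lost without the filter, 87 with only the 3 arrays, 10 under normexp and loess, 8 with channels scaled by totals, 2 under the block and 1 with centred arrays. The other scalings moved the median of all probes to between −0.0273 and 0.0127. Dim probes limit precision, as do 3 arrays.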

Other observations

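Genes of the interferon response and antigen presentation (44 tested) had medians of −0.208, 0.126 and −0.047 on the 3 H2-water arrays, and −0.091, −0.444 and −0.511 after 1, 3 and 7 days of MgH2. At 14 days 1 gene fell, the peptide transporter Tap2 (−0.36, −0.11 and −0.17; adjusted P = 0.041, limma), and 0 rose (3 were higher at an unadjusted P under 0.05, and 2 by the methods' t-test). In the difference from MgH2, 3 of 42 genes were above and 0 below. Over all genes, 5.61% rose and 3.57% fell at 14 days, and 1.62% were above MgH2 and 1.85% below it.

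Unfolded protein and heat shock genes (41 tested) gave 1 rise and 3 falls, where 5.61% of all genes rose and 3.57% fell. The rise was Fkbp4, a cochaperone of HSP90 (0.27, 0.42 and 0.34; adjusted P = 0.00092, limma), with MgH2 means of 0.32, 0.27 and 0.31. The falls were Asns, Stip1, a cochaperone (−0.25), and Calr, or calreticulin (−0.23). Among 31 proteasome genes 1 rose, Psmd5, an assembly chaperone (0.17), and 3 fell, led by the lid subunit Psmd7 (−0.28, −0.37 and −0.24; adjusted P = 0.0014, limma), whose MgH2 means were −0.26, −0.23 and −0.25.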
